A study of Mus musculus with 16 samples.

Results

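The transcripts described here are 34 genes whose messenger RNA is typical of endothelial cells, the cells that line the glomerular capillaries of the kidney. They were followed in polysome RNA of mouse podocytes and glomeruli. A gene was found on the array by matching the accession of a probe to its symbol in a mouse RefSeq gene table, and the 34 were chosen out of 20105 genes with a matched probe. All 34 had a probe, and all 34 passed the filter on dim probes among the 14571 genes tested. Of the 34, 32 were well above background on all 16 arrays. The exceptions were Calcrl, on 14 arrays, and Vwf, on 8 arrays, and Vwf passed only through the glomerular arrays, where it is high.

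The study isolated ribosomes that carry a haemagglutinin epitope. RiboTag mice carry a ribosomal protein gene that gains this epitope after Cre recombination, and Nphs1-Cre, driven by the promoter of the slit diaphragm gene nephrin, places the tag in podocytes, the epithelial cells that cover the outer face of the capillaries. Podocyte RNA came from polysomes pulled down with an antibody to the epitope, and glomerular RNA came from polysomes that were not pulled down. The 4 groups held 4 arrays each: podocytes of uninjured mice, podocytes 4 days after LMB2, podocytes 7 days after LMB2, and glomerular cells of uninjured mice. All mice were C57BL/6N and carried RiboTag and Nphs1-Cre. The LMB2 groups also carried NEP25, which puts human CD25 on podocytes, and received 1 tail vein injection of LMB2, an immunotoxin against CD25, at 0.625 ng per g of body weight. Uninjured mice carried no NEP25, so the allele and the toxin cannot be told apart. The labels state no age, and they do not say whether an array holds 1 animal or a pool, so p-values measure the spread between these samples, which may be technical.

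Glomerular endothelium is flat and perforated by fenestrae, and it lies on a basement membrane that it shares with podocytes. Podocytes make VEGF-A, which crosses that membrane to the receptors Kdr and Flt1 on the endothelium, and angiopoietins act there through Tek. Endothelial identity is held by transcription factors of the ETS family, such as Erg and Fli1, and of the SOX F group, Sox7, Sox17 and Sox18. Ribosomes of these cells carry no tag in this design. Their transcripts in the precipitate can be RNA carried over from outside podocytes or can be expressed by podocytes themselves. Which of these holds was not tested.

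Promoter sequence, from RefSeq on build GRCm38.p6, was on hand for 16 of the 34 genes, in 22 windows that run from 250 bases before to 50 bases after a transcription start. The windows shown belong to genes on which the results below turn. Emcn and Ehd3 were called lower at both times after LMB2, though Ehd3 at day 4 in only 9 of 19 alternatives, Tek had the largest difference at day 4, and Srgn was the only member called higher at day 7 that had a window. Capitals mark the ETS word AGGAAG or its reverse complement CTTCCT, and the SOX word ACAAT or its reverse complement ATTGT. Emcn is at chr3:137340828-137341127 on the plus strand, Ehd3 at chr17:73804591-73804890 on the plus strand, Tek at chr4:94739039-94739338 on the plus strand and Srgn at chr10:62527396-62527695 on the minus strand.
Emcn: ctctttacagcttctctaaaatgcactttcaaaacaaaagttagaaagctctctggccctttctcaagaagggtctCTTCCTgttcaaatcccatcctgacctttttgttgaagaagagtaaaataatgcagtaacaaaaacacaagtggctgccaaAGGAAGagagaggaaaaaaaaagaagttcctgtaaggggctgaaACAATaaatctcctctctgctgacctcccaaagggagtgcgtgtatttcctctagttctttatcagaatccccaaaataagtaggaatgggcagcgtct
Ehd3: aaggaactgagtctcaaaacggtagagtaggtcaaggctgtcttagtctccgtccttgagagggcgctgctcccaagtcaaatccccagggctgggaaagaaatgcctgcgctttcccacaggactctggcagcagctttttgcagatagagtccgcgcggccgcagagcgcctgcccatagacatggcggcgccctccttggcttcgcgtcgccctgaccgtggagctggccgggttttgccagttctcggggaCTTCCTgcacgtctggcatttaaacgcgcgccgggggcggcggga
Tek: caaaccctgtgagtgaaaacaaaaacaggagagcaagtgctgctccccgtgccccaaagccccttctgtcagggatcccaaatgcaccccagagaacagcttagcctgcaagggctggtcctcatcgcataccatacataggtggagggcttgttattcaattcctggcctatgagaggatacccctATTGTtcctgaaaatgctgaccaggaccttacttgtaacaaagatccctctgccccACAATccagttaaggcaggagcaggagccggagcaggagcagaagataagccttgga
Srgn: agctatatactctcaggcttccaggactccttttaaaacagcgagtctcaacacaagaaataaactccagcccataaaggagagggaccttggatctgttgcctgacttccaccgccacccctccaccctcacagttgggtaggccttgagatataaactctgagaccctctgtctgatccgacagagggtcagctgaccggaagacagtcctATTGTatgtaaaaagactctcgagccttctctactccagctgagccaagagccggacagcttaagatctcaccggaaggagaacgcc
The ETS word was found in 12 of the 22 windows (54.5%), against 35.4% of the 32851 windows in the table. The SOX word was found in 8 of the 22 (36.4%), against 31.0% of all windows. Emcn held 2 ETS words and 1 SOX word, Ehd3 held 1 ETS word, Tek held 2 SOX words and Srgn held 1 SOX word, with no overlap between words. Srgn has another window, at chr10:62507708-62508007 on the minus strand and not shown, that holds neither word. These are matches of letters on both strands and no evidence of binding.

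A level below is the log2 of the scanner's processed intensity minus the 75th percentile of its array, so 0 is the 75th percentile. Levels of different probes are not comparable, and only differences of 1 probe between arrays are compared. On an array, 49.3% to 57.5% of spots were well above background, the 75th percentile of intensity ran from 227 to 415, and no spot was saturated. Slide 1 held both uninjured groups and slide 2 both LMB2 groups, so slide and injury cannot be told apart, whereas podocyte and glomerular RNA of uninjured mice lay on 1 slide. As a check of the podocyte label, Nphs1, nephrin, had a mean level of 7.80 ± 0.21 in uninjured podocyte RNA and 5.47 ± 0.35 in glomerular RNA (SD, n = 4 each). Podxl, the sialomucin of the podocyte surface, and Wt1, a podocyte transcription factor, were higher in podocyte RNA by 2.38 ± 0.12 and 2.30 ± 0.10 (log2 difference ± SE). Day 4 replicate 1 stood apart from the other 3 day 4 arrays, with an SD of log2 differences over all genes of 0.679 to 0.691 against each of them and 0.398 to 0.521 among the other 3. It was the highest day 4 array for 32 of the 34 endothelial genes, against 23.4% of all genes. Day 7 replicate 4 likewise stood apart, with an SD of 0.613 to 0.751 against the other 3 day 7 arrays and 0.459 to 0.570 among those. It was the highest day 7 array for 23 of the 34, against 21.4% of all genes.

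The podocyte precipitate of uninjured mice was compared with their glomerular RNA to see how much RNA of the endothelial genes the precipitate held. Every one of the 34 genes was lower in podocyte RNA, and for every one all 4 podocyte arrays lay below all 4 glomerular arrays. Of all genes tested, 27.5% were called lower in this comparison (limma, Benjamini-Hochberg adjusted p under 0.05) and 25.2% had such separated arrays. The median difference was -4.40 on the log2 scale, which leaves 4.74% of the glomerular level, and the median over all genes tested was 0.38. Over the 32 genes well above background on all arrays the median was -4.43. This difference sets a pull-down against RNA that was not pulled down. In what remains, RNA carried over from endothelial cells and expression of these genes in podocytes cannot be told apart. In bulk RNA such as this, neither can fewer cells of a type and less RNA per cell.

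**Figure D1:**
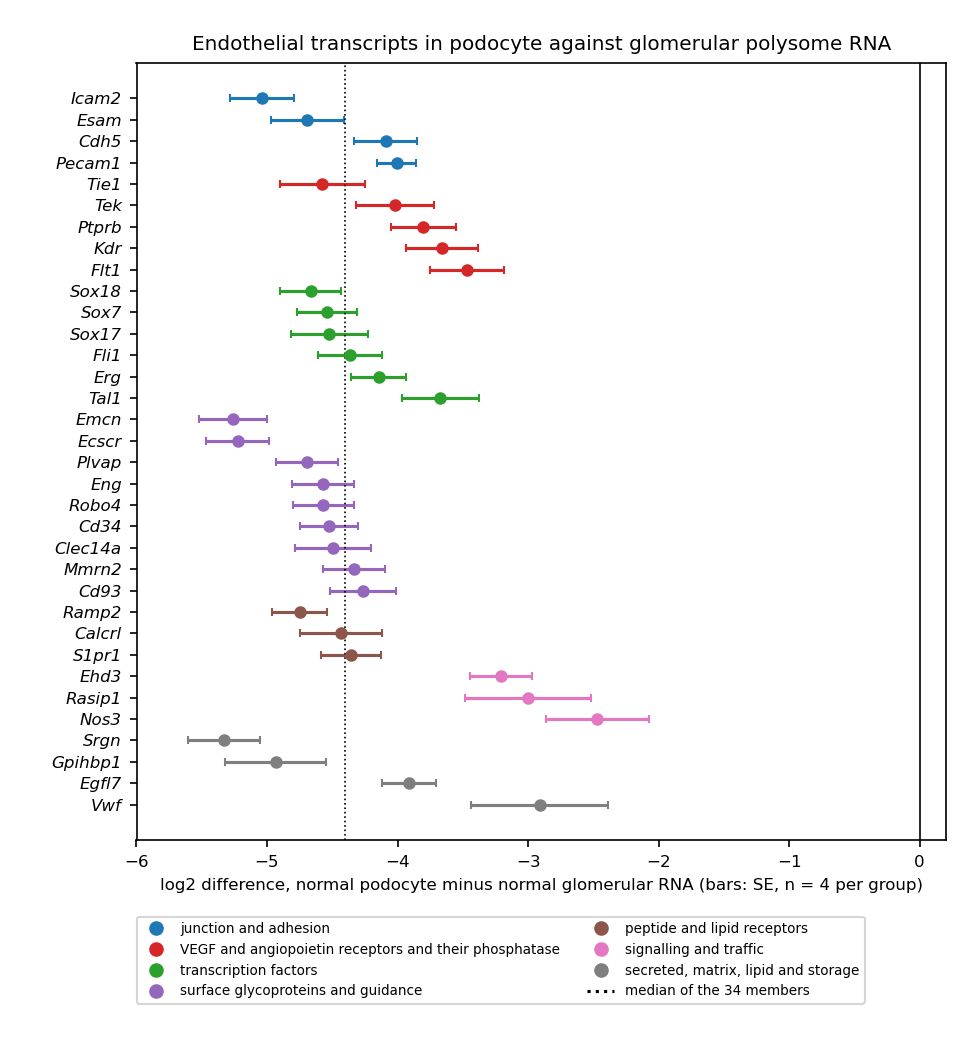
Log2 difference of each endothelial gene, uninjured podocyte minus uninjured glomerular polysome RNA, with limma standard errors (n = 4 arrays per group); colours give the role, the dotted line the median of the 34 genes (-4.40) and the solid line no difference. All points lie left of 0, from -5.33 for Srgn to -2.47 for Nos3, and Nos3, Vwf and Rasip1 lie nearest to 0.

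Among genes of cell junctions and adhesion, the median difference was -4.39. Icam2, an adhesion molecule for leukocytes, had levels of 2.16, 2.56, 2.16 and 1.94 in podocyte RNA and 7.36, 7.22, 7.32 and 7.09 in glomerular RNA. Its difference of -5.04 ± 0.25 was 32.9-fold. Esam, a junctional adhesion molecule, differed by -4.69 ± 0.28, Cdh5, the cadherin of endothelial junctions, by -4.09 ± 0.24, and Pecam1, an adhesion molecule of the same junctions, by -4.01 ± 0.15 (SE, n = 4 per group). The 4 genes thus kept 3.04% to 6.22% of their glomerular level.

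Receptors of VEGF and angiopoietin and the phosphatase Ptprb, which acts on Tek, were lower by a median of -3.80. Tie1, the receptor that partners Tek, differed by -4.58 ± 0.33, Tek by -4.02 ± 0.30 and Ptprb by -3.80 ± 0.25. Flt1, the high-affinity VEGF receptor, had the smallest difference of the 5 at -3.47 ± 0.29. Kdr, the main signalling receptor for VEGF-A, differed by -3.66 ± 0.28 on its brighter probe, with levels of 2.69, 2.80, 4.04 and 3.26 in podocyte RNA and 7.01, 6.70, 7.09 and 6.64 in glomerular RNA. Its other probe gave 2.94, 2.81, 2.96 and 2.90 in podocyte RNA and 3.99, 3.82, 4.12 and 3.99 in glomerular RNA, a difference of -1.08 ± 0.13. The probes of Kdr therefore put the same direction on very different sizes, 12.6-fold and 2.11-fold.

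The 6 transcription factors had a median of -4.44. Sox18, Sox7 and Sox17, which specify endothelium, lay close together at -4.67 ± 0.23, -4.54 ± 0.23 and -4.52 ± 0.30. Fli1 differed by -4.36 ± 0.25 and Erg by -4.14 ± 0.21. Tal1, a factor of blood and endothelial progenitors, had the smallest difference of the group at -3.67 ± 0.29. The other Erg probe was well above background on all 4 glomerular arrays and on none of the podocyte arrays, so it gives a bound of at least 19.7-fold lower, against 17.7-fold on the brighter probe. Such a bound sets the glomerular mean against the podocyte arrays' lowest signal well above background, or the probe's own signal where that was higher.

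Surface glycoproteins and the guidance receptor Robo4 had the median farthest from 0 of the 7 roles, -4.57. Emcn, the sialomucin endomucin, had levels of 0.26, 0.95, 0.44 and 0.32 in podocyte RNA and 5.85, 5.65, 5.81 and 5.69 in glomerular RNA, a 38.3-fold difference. Ecscr, a small membrane protein of endothelium that affects migration, was lower by 37.4-fold. Plvap, the diaphragm protein of fenestrae, Eng, a TGF-beta coreceptor, Robo4, Cd34, a sialomucin, Clec14a, a lectin-like protein, Mmrn2, an extracellular matrix protein that Clec14a and Cd93 bind, and Cd93 lay between -4.69 and -4.26. Plvap's other probe differed by -3.70 ± 0.20, and the other probes of Cd34 and Clec14a by -4.67 ± 0.21 and -4.15 ± 0.31. For these genes the probes had the same direction.

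The 3 receptors of peptides and lipids had a median of -4.43, with Ramp2 and Calcrl, which form the adrenomedullin receptor, at -4.75 ± 0.21 and -4.43 ± 0.32, and S1pr1, a receptor for sphingosine 1-phosphate, at -4.36 ± 0.23. Among secreted and storage proteins, Srgn, the proteoglycan of storage granules, had the largest difference of all 34, with levels of 0.72, 1.22, 0.74 and 0.66 in podocyte RNA and 6.32, 6.05, 6.26 and 6.04 in glomerular RNA (40.2-fold). Gpihbp1, which carries lipoprotein lipase into the capillary, differed by -4.93 ± 0.39 and Egfl7, a secreted vascular matrix protein, by -3.91 ± 0.21. Vwf, the clotting protein of endothelial storage granules, was dim throughout. Its levels were -4.94, -4.77, -3.39 and -4.78 in podocyte RNA, with 2 arrays well above background, and -2.11, -1.69, -0.66 and -1.77 in glomerular RNA.

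The 3 genes of signalling and membrane traffic had the median nearest to 0 of the 7 roles, -3.00. Nos3, endothelial nitric oxide synthase, had levels of 0.18, 0.18, 2.09 and 1.26 in podocyte RNA and 3.63, 3.27, 3.46 and 3.24 in glomerular RNA, so it kept 18.1% of the glomerular level (-2.47 ± 0.39, limma adjusted p = 4.39e-05). Rasip1, a Ras-interacting protein needed for vessel lumens, had -0.03 and 0.76 on podocyte replicates 1 and 2 but 2.69 and 1.91 on replicates 3 and 4, against 4.45, 4.50, 4.15 and 4.24 in glomerular RNA (-3.00 ± 0.48). Both genes were higher on podocyte replicates 3 and 4, which lay on the second row of the slide, than on replicates 1 and 2, which lay on the first. Ehd3, an endocytic protein that among kidney cells marks glomerular endothelium, differed by -3.21 ± 0.24. Each row held 2 arrays of either group, so a block on row cannot move the difference. With that block the limma adjusted p was 0.000408 for Nos3 and 0.000648 for Rasip1. Within the first row Nos3 differed by -3.27 and Rasip1 by -4.11, and within the second by -1.67 and -1.89, with 2 arrays a group and no test. Such a split was not particular to them. Flt1 differed by -4.02 and -2.91 in the first and second row and Ehd3 by -3.70 and -2.71. Others had no such split, such as Emcn at -5.15 and -5.37.

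Most transcripts of other cells of the kidney were lower in the precipitate as well. All 12 mesangial and smooth muscle genes were called lower, with a median of -3.52, as were all 12 proximal tubule genes at -3.61 and all 6 red blood cell genes at -4.14. Distal nephron genes had a median of -3.96 with 7 of 8 called lower and the other, not called, at 0.61. Leukocyte genes had a median of -4.28, or -3.94 with the 2 genes well above background on no podocyte array at their bound. Of the 14 leukocyte genes 12 were called lower. The exceptions, Itgam at 0.40 ± 0.20 and Csf1r at -0.12 ± 0.20, were not called and lay near their glomerular level. Of the 15 podocyte genes, 15 were called higher, with a median of 2.32. Of all genes tested, 51.6% were called higher in this comparison and 27.5% lower. A second list of endothelial genes, 41 tested, had 39 called lower and a median of -3.78, or -3.72 with 2 such genes at their bound. The other 2 were higher in podocyte RNA: Cldn5, a tight junction protein, by 2.76 ± 0.17, and Tm4sf1, a tetraspanin-like membrane protein, by 1.23 ± 0.15. Whether the median of the 34 genes differs from those of these lists was not tested.

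The endothelial signal varied from array to array. The mean over the 34 genes, set against the mean of the uninjured podocyte arrays, was -0.36, 0.05, 0.38 and -0.07 on the uninjured arrays. It was 0.17, -0.89, -0.58 and -0.47 at day 4, and 0.20, 0.15, 0.08 and 0.61 at day 7. Glomerular arrays, all of uninjured mice, lay at 4.06 to 4.35 on this scale, far above every podocyte array. Within groups, the SD of a gene's level had a median of 0.36 in uninjured podocyte RNA and 0.18 in glomerular RNA, and Rasip1 (1.21) and Nos3 (0.93) varied most among uninjured podocyte arrays. Uninjured replicate 3 was the highest of its group for 21 of the 34 genes and replicate 2 for 13, against 23.4% and 22.5% of all genes.

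**Figure D2:**
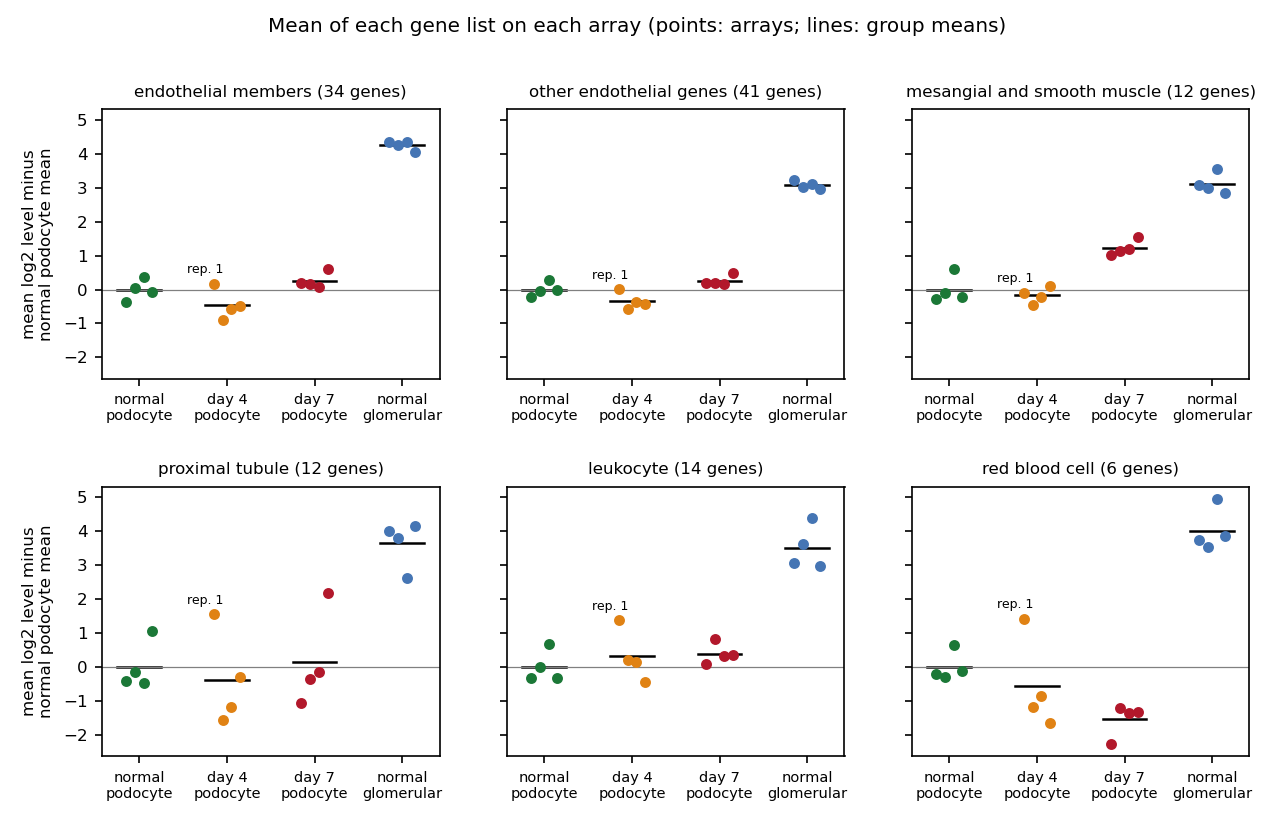
Mean log2 level of 6 gene lists on each array, minus the mean of the 4 uninjured podocyte arrays; points are arrays in replicate order from the left within a group, lines are group means. Day 4 replicate 1 is the highest day 4 array in the endothelial, proximal tubule (1.54), leukocyte (1.38) and red blood cell (1.42) panels, day 7 replicate 4 is the highest day 7 array in the endothelial (0.61) and proximal tubule (2.17) panels, and the mesangial list lies higher at day 7 (1.02 to 1.54).

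**Figure D3:**
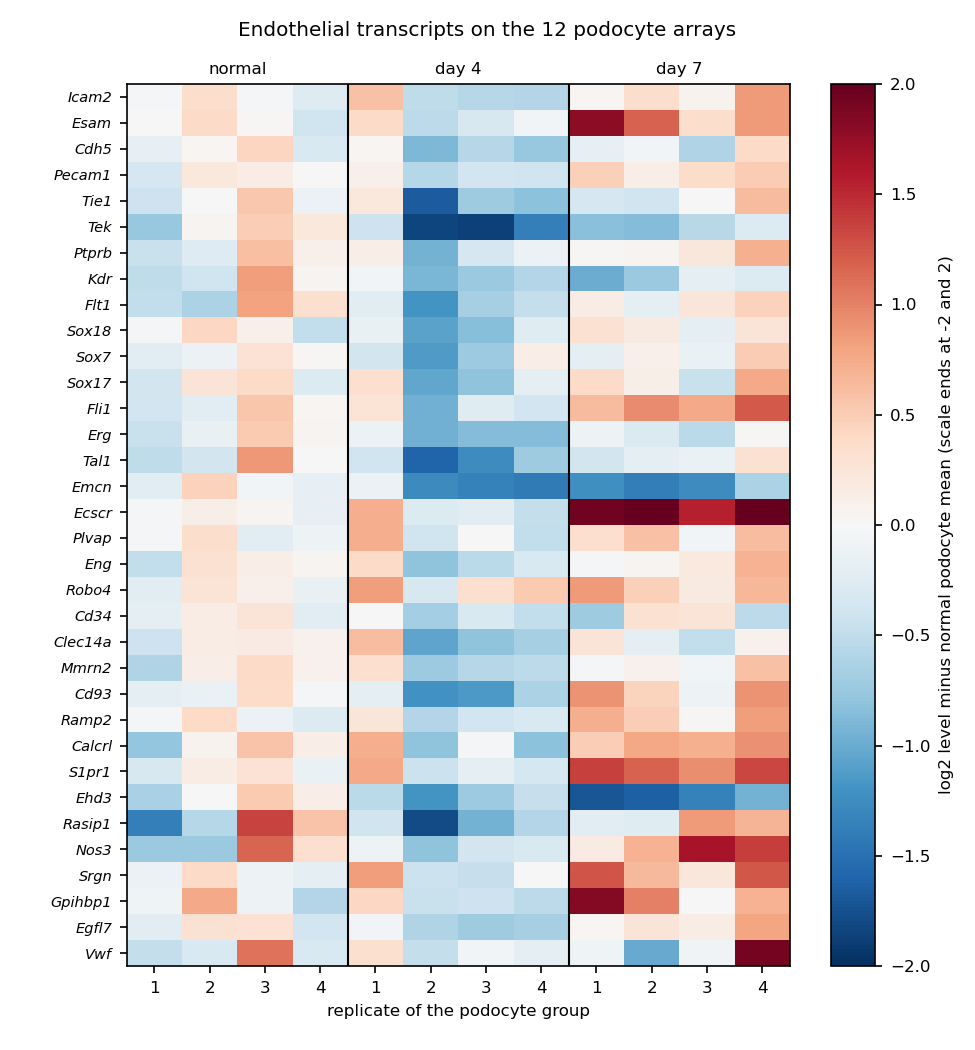
Log2 level of each endothelial gene on the 12 podocyte arrays minus the gene's mean over the uninjured podocyte arrays, with genes ordered by role and colours ending at -2 and 2. Day 4 replicates 2 to 4 are mostly blue, replicate 1 is not, and Ecscr, S1pr1, Emcn and Ehd3 are alike on all 4 day 7 arrays.

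Podocyte RNA 4 days after LMB2 was compared with podocyte RNA of uninjured mice to see whether injury changed the endothelial signal in the precipitate. Tek, Emcn, Tal1, Cd93, Ehd3 and Erg were called lower, 6 of the 34, and none was called higher. Over all genes tested, 19.9% were called lower and 12.3% higher, so the share of these genes called lower (6 of 34) was close to the background. The median over the 34 was -0.39, against -0.12 over all genes. Of the 34 differences 33 were below 0, where 9112 of all 14571 genes tested were. Robo4 was the exception, at 0.34 ± 0.23. The 34 genes share the same arrays, so their signs are not separate observations.

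Tek, the angiopoietin receptor, had the largest difference. Its levels were -1.65, -3.08, -3.10 and -2.61 at day 4, against -2.00, -1.18, -0.75 and -1.03 in uninjured podocyte RNA (2.58-fold lower, -1.37 ± 0.30, limma adjusted p = 0.00327). Replicate 1 at day 4 lay within the uninjured arrays, so the groups overlapped. Emcn had 0.38, -0.78, -0.86 and -0.92 at day 4, against 0.26, 0.95, 0.44 and 0.32 in uninjured podocyte RNA (-1.04 ± 0.26, limma adjusted p = 0.00719), and again replicate 1 alone lay among the uninjured values. Tal1 had -2.29, -3.50, -3.15 and -2.61, against -2.40, -2.27, -1.03 and -1.90 in uninjured podocyte RNA (-0.99 ± 0.29, limma adjusted p = 0.0187). Cd93 was the only one of the 34 whose day 4 arrays, at -0.75, -1.77, -1.70 and -1.18, all lay below the uninjured arrays, at -0.74, -0.69, -0.19 and -0.59. The nearest arrays of the 2 groups were almost level, and 20.9% of all genes had day 4 arrays wholly below the uninjured ones.

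Ehd3 had levels of 3.92, 3.27, 3.74 and 4.01 at day 4, against 3.82, 4.47, 4.98 and 4.59 in uninjured podocyte RNA (-0.73 ± 0.24, limma adjusted p = 0.0295). Its call at day 4 held in 9 of 19 alternatives, and was lost with both quantile normalizations, the replicate block and 5 of the 8 left-out arrays. Erg was lower by -0.70 ± 0.21 (limma adjusted p = 0.0203) on its brighter probe, while its other probe, dim in podocyte RNA, differed by 0.06 ± 0.48. The day 4 call of Erg held in 11 of 19 alternatives, that of Tal1 in 14 and that of Cd93 in 15. Tek and Emcn lost theirs only with the replicate block. Among VEGF receptors, Kdr differed by -0.57 ± 0.28 and Flt1 by -0.64 ± 0.29, neither called. The other Kdr probe went the opposite way, at 0.52 ± 0.13, with levels of 3.54, 3.52, 3.46 and 3.15 at day 4, against 2.94, 2.81, 2.96 and 2.90 in uninjured podocyte RNA. The direction of Kdr after LMB2 thus depends on the probe.

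The number called turned on single arrays. Without day 4 replicate 1, 14 of the 34 were called lower, against 16.4% of all genes in the same fit, with Clec14a, Tie1, Pecam1, Egfl7, Cdh5, Sox18, Icam2 and Mmrn2 added, and the mean over the 34 at day 4 was -0.65 in place of -0.44. Without uninjured replicate 3, or without day 4 replicate 2 or replicate 3, Tek and Emcn were the 2 called, where 15.6% to 19.4% of all genes were called lower. With arrays centred on their median over all probes, which moved the median of all genes by -0.27, 20 of the 34 and 40.0% of all genes were called lower. With replicate number as a block 0 of the 34 were called by limma, where 7.23% of all genes were called lower. Same-numbered samples of these groups had correlations of -0.36 to 0.08, and whether they are pairs is not known. Replicate 1 at day 4 also had the highest proximal tubule, leukocyte and red blood cell means of its group, at 1.54, 1.38 and 1.42 against at most -0.31, 0.21 and -0.86 on the other 3 arrays. The part of such RNA in the day 4 result was not tested. The mean of the podocyte list lay at -0.39 to -0.08 on the day 4 arrays, with 5 of 15 called lower and 1 higher. In that fit, the main one, 19.9% of all genes were called lower and 12.3% higher.

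**Figure D4:**
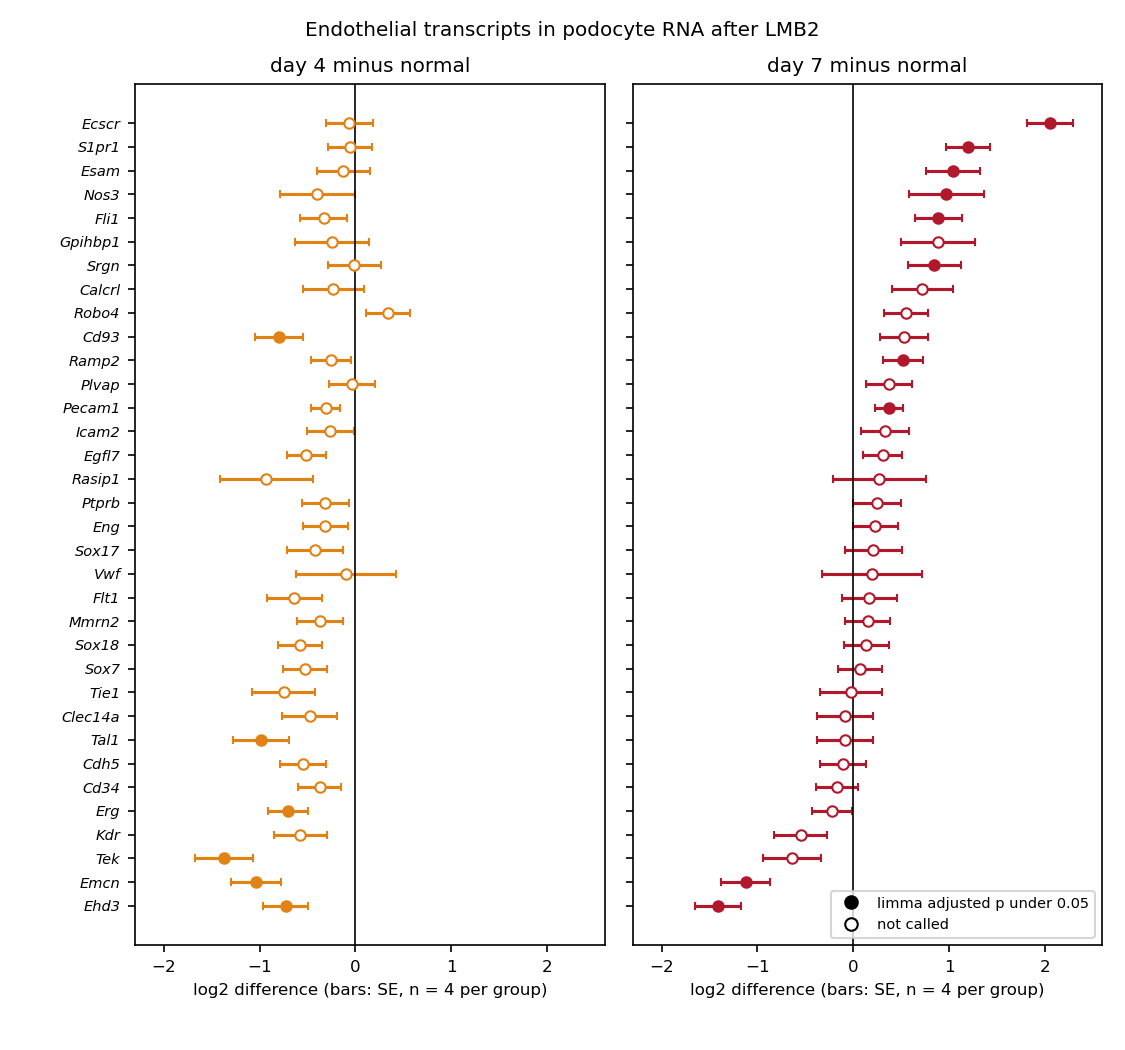
Log2 difference of each endothelial gene in podocyte RNA, day 4 minus uninjured (left) and day 7 minus uninjured (right), with limma standard errors (n = 4 arrays per group); filled points have an adjusted p under 0.05. At day 4 all but Robo4 lie below 0, where 9112 of all 14571 genes tested do. At day 7 Ecscr (2.05) and Ehd3 (-1.41) lie at the ends. Both panels share the uninjured arrays.

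At day 7 endothelial genes were called in both directions. Ecscr, S1pr1, Esam, Nos3, Fli1, Srgn, Ramp2 and Pecam1 were called higher than in uninjured podocyte RNA, and Ehd3 and Emcn lower. That is 8 of 34 higher and 2 of 34 lower, where 21.6% of all genes were called higher and 36.7% lower. The median over the 34 was 0.24, against -0.14 over all genes. With arrays centred on their median over all probes it was -0.08, with 4 of the 34 called higher and 5 lower. In that fit 13.5% of all genes were called higher and 50.7% lower. That centring moved the median of all genes by -0.32. Either scale shifts all genes of an array alike, so by arithmetic alone the median of the 34 lay 0.38 above that of all genes on both. Under settings that can move this gap, it was 0.19 without the filter on dim probes and 0.28 with normexp and the 75th percentile. With quantile normalization it was 0.48. The arrays did not overlap for Ecscr, S1pr1 and Fli1 above and for Emcn and Ehd3 below, where 17.6% of all genes were wholly above and 33.0% wholly below.

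Ecscr had the largest difference of the 34 at day 7. Its levels were 0.03, 0.40, -0.35 and 0.53 at day 7, against -1.93, -1.78, -1.84 and -2.06 in uninjured podocyte RNA, 4.15-fold higher (2.05 ± 0.24, limma adjusted p = 6.28e-06). All 4 day 7 arrays lay above all uninjured podocyte arrays, and all lay below the uninjured glomerular arrays, which ran from 3.08 to 3.61. S1pr1 had 0.91, 0.72, 0.48 and 0.88 at day 7, against -0.77, -0.30, -0.16 and -0.59 in uninjured podocyte RNA, 2.30-fold higher (adjusted p = 0.000431 by limma). Esam had 1.86, 1.24, 0.41 and 0.92, against 0.07, 0.44, 0.09 and -0.34 in uninjured podocyte RNA (1.04 ± 0.28, limma adjusted p = 0.00527), and replicate 3 lay just below the highest uninjured array. Fli1 had -0.77, -0.46, -0.65 and -0.18, against -1.79, -1.62, -0.84 and -1.36 in uninjured podocyte RNA (0.89 ± 0.25). Erg, the other ETS factor among the 34, differed by -0.22 ± 0.21 and was not called.

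Ehd3 had the largest fall at day 7. It had 2.76, 2.83, 3.11 and 3.52 at day 7, against 3.82, 4.47, 4.98 and 4.59 in uninjured podocyte RNA, 2.66-fold lower (-1.41 ± 0.24, limma adjusted p = 0.000147). Emcn had -0.74, -0.89, -0.76 and -0.14, against 0.26, 0.95, 0.44 and 0.32 in uninjured podocyte RNA, 2.18-fold lower (-1.12 ± 0.26, limma adjusted p = 0.00182). In both genes no day 7 array reached an uninjured one. Calls for Ecscr, S1pr1, Esam, Fli1, Emcn and Ehd3 held under each of the 19 alternatives run for this comparison.

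The other 4 calls at day 7 were less stable. Srgn (0.84 ± 0.28, limma adjusted p = 0.0167) kept its call in 16 of 19 alternatives, and lost it with arrays centred on the median of all probes and without day 7 replicate 1 or 4. Nos3 (0.97 ± 0.39), Ramp2 (0.52 ± 0.21) and Pecam1 (0.37 ± 0.15) had adjusted p of 0.0468, 0.0461 and 0.0445 in limma, and kept the call in 9, 8 and 8 alternatives. Nos3 lost it without uninjured replicates 1 or 2 or day 7 replicates 2, 3 or 4, and its adjusted p over all alternatives was up to 0.149. Ramp2 lost it without uninjured replicates 1, 3 or 4 or day 7 replicates 1, 2 or 4, and Pecam1 without uninjured replicates 1 or 4 or day 7 replicates 1, 3 or 4, with adjusted p over all alternatives of up to 0.482 and 0.803. Without day 7 replicate 4, 4 of the 34 were called higher and 2 lower, where 21.5% of all genes were called higher and 34.9% lower.

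Probes of Cd34 disagreed at day 7. The brighter one had 1.73, 2.76, 2.71 and 1.93 at day 7, against 2.27, 2.59, 2.70 and 2.23 in uninjured podocyte RNA (-0.17 ± 0.22, not called). The dimmer one had -2.43, -3.20, -3.09 and -3.31, against -4.54, -3.73, -4.49 and -4.70 in uninjured podocyte RNA, where it was well above background on 2 arrays (1.36 ± 0.21). With the mean of both probes Cd34 was called higher, at 0.60. Kdr was split in the same way, at -0.55 ± 0.28 on its brighter probe and 0.69 ± 0.13 on the other. Other members not called at day 7 included Tek at -0.64 ± 0.30, Robo4 at 0.55 ± 0.23 and Gpihbp1 at 0.89 ± 0.39.

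**Figure D5:**
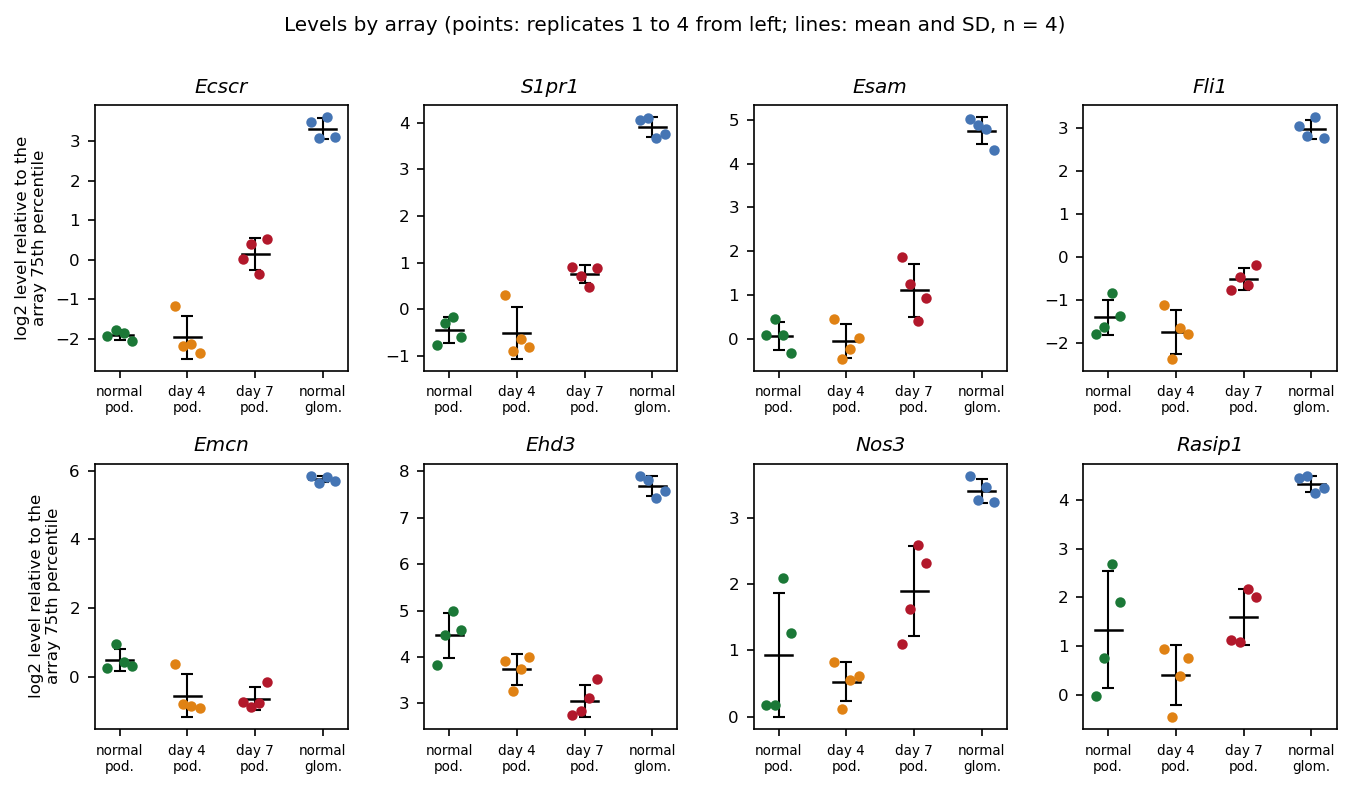
Levels of 8 endothelial genes on every array, as log2 relative to the array's 75th percentile; points are replicates 1 to 4 from the left, lines the mean and SD of 4 arrays. Ecscr, S1pr1, Esam and Fli1 are higher at day 7, Emcn and Ehd3 lower, and in Nos3 and Rasip1 uninjured podocyte replicates 3 and 4 lie above replicates 1 and 2.

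Markers of other cells at day 7 moved in both directions, where 21.6% of all genes were called higher and 36.7% lower. Of 12 mesangial and smooth muscle genes 5 were called higher and 0 lower, and the list's mean ran from 1.02 to 1.54 at day 7, against -0.29 to 0.61 in uninjured podocyte RNA. A few genes carried that mean. Tagln, a smooth muscle actin-binding protein, differed by 6.01 ± 0.25 and Des, the filament protein desmin, by 3.02 ± 0.16, both named after their values were seen. The list's median was 0.31, 0.34, 0.78 and 1.03 on the day 7 arrays, against -0.23, -0.08, 0.47 and -0.10 on the uninjured podocyte arrays, so the medians overlapped, and 7 of the 12 were not called. Fhl2, a LIM domain cofactor, differed by 1.07 ± 0.21 and Itga8, a mesangial integrin subunit, by -0.23 ± 0.21. Proximal tubule genes had 0 of 12 called by limma, with means of -1.07, -0.36, -0.16 and 2.17 at day 7, against -0.48 to 1.07 in uninjured podocyte RNA. Distal nephron genes had 1 of 8 called lower, with means of -0.35, -0.18, -0.96 and 0.75 at day 7, against -0.27 to 0.40 in uninjured podocyte RNA. Both tubule lists were thus highest on replicate 4, the array with the highest endothelial mean of its group (0.61). Of 6 red blood cell genes 5 were called lower, with means from -2.27 to -1.22 at day 7, against -0.31 to 0.64 in uninjured podocyte RNA. Leukocyte genes had 1 of 14 called higher and 1 lower, with means of 0.07 to 0.80, against -0.34 to 0.66 in uninjured podocyte RNA. Podocyte genes had 12 of 15 called lower, with means of -0.99 to -0.76, against -0.04 to 0.03 in uninjured podocyte RNA. Platelet and megakaryocyte genes had 1 of 6 called higher at day 7 and 1 of 6 at day 4, Itga2b, an integrin subunit of platelets, named after its values were seen. It was well above background on no uninjured podocyte array, which gives at least 2.15-fold higher at day 7 and at least 3.9-fold higher at day 4. The mean of that list was 0.35 to 0.75 at day 7 and 0.11 to 0.79 at day 4, against -0.58 to 0.44 in uninjured podocyte RNA. Of the 6, Ppbp, Gp9 and Treml1 were well above background on no podocyte array. The part of any of these in the endothelial values was not tested.

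Between the injury times, more of these transcripts were higher than lower at day 7 relative to day 4. Day 7 arrays lay on the first row of their slide and day 4 arrays on the second, so row and time cannot be told apart. Of the 34, 15 were called higher at day 7 and 1, Ehd3, lower, where 13.2% of all genes were called higher and 20.7% lower. The median difference was 0.70, against -0.07 over all genes, and 10 of the 34 had all day 7 arrays above all day 4 arrays, against 12.3% of all genes. All 3 peptide and lipid receptors were among the 15: S1pr1 at 1.26 ± 0.23, Calcrl at 0.95 ± 0.32 and Ramp2 at 0.78 ± 0.21. So were 3 of the 6 transcription factors, Fli1 at 1.22 ± 0.25, Tal1 at 0.90 ± 0.29 and Sox18 at 0.71 ± 0.23. The largest difference was that of Ecscr, 4.34-fold (2.12 ± 0.24, limma adjusted p = 2.65e-05), with -1.17, -2.18, -2.13 and -2.37 at day 4.

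Cd93 was lower than uninjured at day 4 and was 2.51-fold higher at day 7 than at day 4, with 0.34, -0.11, -0.66 and 0.34 at day 7 and -0.75, -1.77, -1.70 and -1.18 at day 4 (limma adjusted p = 0.00128). The difference of day 7 from uninjured was not called (0.53 ± 0.25, limma adjusted p = 0.0849). Nos3 (1.37 ± 0.39), Esam (1.17 ± 0.28), Gpihbp1 (1.13 ± 0.39), Srgn (0.86 ± 0.28), Egfl7 (0.82 ± 0.21), Flt1 (0.80 ± 0.29) and Pecam1 (0.68 ± 0.15) made up the rest of the 15. Emcn differed by -0.09 ± 0.26 between the times and Tek by 0.73 ± 0.30, neither called. Counts again turned on single arrays: 25 were called without day 4 replicate 1, 9 without day 4 replicate 2 and 10 without day 4 replicate 3, where 31.9%, 26.0% and 28.4% of all genes were called in either direction. Calls for Pecam1, Esam, Fli1, Cd93, Ecscr, Ramp2 and S1pr1 held in all 19 alternatives. Nos3 and Egfl7 lost the call in 1 alternative, Tal1 in 4, Srgn in 5, Sox18 in 6, Flt1 in 7 and Gpihbp1 in 8. Calcrl lost it in 9 of the 18 run for it, and Ehd3, the gene called lower, in 10 of 19, among them both quantile normalizations.

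In each podocyte group, the mean over these transcripts lay far below that in glomerular RNA of uninjured mice. Some lay closer. Nos3 had a mean level of 1.90 ± 0.68 at day 7, against 3.40 ± 0.18 in glomerular RNA. The other Kdr probe had 3.59 ± 0.24 at day 7, against 3.98 ± 0.12 in glomerular RNA. No glomerular RNA of LMB2 mice was among the samples, and the LMB2 arrays lay on the other slide. The mean over the 34 genes, relative to the glomerular mean, was -4.25 ± 0.30 in uninjured podocyte RNA, -4.69 ± 0.45 at day 4 and -3.99 ± 0.24 at day 7 (SD, n = 4 each). The difference between these group means was not tested over the list.

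The second endothelial list had means of -0.35 ± 0.25 at day 4 and 0.26 ± 0.16 at day 7 relative to uninjured podocyte RNA. Of its 41 genes 2 were called higher and 9 lower at day 4, 10 higher and 8 lower at day 7, and 14 higher and 2 lower between day 7 and day 4. Of all genes tested, 12.3% were called higher and 19.9% lower at day 4, and 21.6% higher and 36.7% lower at day 7. Between day 7 and day 4, 13.2% were called higher and 20.7% lower. The shares of the list called lower at day 4 and higher at day 7 were near those of all genes. The largest called differences at day 4 were those of Afap1l1, an actin-linked adaptor, at -1.13 ± 0.23, Dll4, a Notch ligand, at -1.01 ± 0.28 and Nostrin, which binds Nos3, at -0.75 ± 0.20. At day 7 Cav1, the coat protein of caveolae, was higher by 3.79 ± 0.21 and its partner Cav2 by 2.47 ± 0.12. Cav1 had a mean level of -0.48 ± 0.33 at day 7, against -4.27 ± 0.31 in uninjured podocyte RNA, and -0.41 ± 0.15 in uninjured glomerular RNA. Dll4 was not well above background on any day 7 array, which gives at least 2.76-fold lower than in uninjured podocyte RNA. Ednrb, an endothelin receptor, was higher at day 7 than at day 4 by 2.02 ± 0.28.

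Of 8 genes of VEGF and angiopoietin ligands, Vegfa, Pgf and Vegfd were called at 1 or both times, and they were chosen for naming after their values were seen. Vegfa was higher in uninjured podocyte than in glomerular RNA by 2.55 ± 0.15, while the other 7 ligands were lower. After LMB2 it was lower, by -0.58 ± 0.15 at day 4 and -1.82 ± 0.15 at day 7 (limma adjusted p = 0.01 and 2.66e-07), with mean levels of 7.77 ± 0.16 uninjured, 7.19 ± 0.24 at day 4 and 5.95 ± 0.15 at day 7. Pgf, a ligand of Flt1, was higher by 1.02 ± 0.25 at day 4 and 1.87 ± 0.25 at day 7. Vegfd, a ligand of lymphatic and vascular receptors, was higher by 1.72 ± 0.40 at day 7.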

How the data were processed

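Per the labels' protocols, RNA was purified with a column kit and labelled with Cy3. Per the file headers, each sample was read on a 1-colour Agilent array, and the submitters' processing notes name Agilent Feature Extraction 11.5.1.1. For every spot the deposited files give a linear intensity that Feature Extraction had processed but not normalized between arrays, with the raw and background intensity. A value table that the authors deposited holds log2 values of 39430 probes in 16 columns, with medians of -3.17 to -2.51. Set against the scanner values, each column equalled 1 array's log2 processed intensity less a constant, and what the constant stands for is unknown. In 6 columns, replicates 1 to 3 of both uninjured groups, that array is another replicate of the same group, and none matched another group. Replicate numbers here are those of the scanner files, so those of the uninjured groups are uncertain.

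Control and outlier spots were left out and the log2 intensities of a probe's spots averaged, giving 55681 probes, of which 26576 matched 1 symbol and 29105 none by unversioned accession. The array's 75th percentile was subtracted. A probe was kept if some group had it well above background on each of its 4 arrays, and the brightest kept probe stood for a gene, 14571 genes in all. All 16 arrays entered 1 limma model (3.58.1, R 4.3.3) with group as its only term and 12 residual degrees of freedom. Genes were called at a Benjamini-Hochberg adjusted p under 0.05 over all genes tested. The number of arrays limits the precision. Uninjured podocyte and glomerular samples of the same number deviated together (correlations of 0.42 to 0.51), each most with its own number. The main model did not pair them, and only the replicate block, an alternative, took them as pairs. The sample titles give a number and state no pairing. In the injury comparisons the replicate block was also run as an alternative, though their same-numbered samples did not deviate together throughout. The fit was tested on simulated data.

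Of the 34 genes, those with the largest and smallest differences, those called after injury and those whose probes disagreed are described most fully. Of other lists, the rule named Nphs1, Podxl and Wt1, endothelial genes opposite to their list or among the 3 largest called, and the 2 brightest of each marker list, of which the text gives those that bear on a result. The 34 genes, the lists and the tests were chosen with earlier results of these data known. Alternatives covered background correction, normalization, the filter, the probe rule, the value table, the samples in the fit, the replicate block and each left-out array. Chromosomes and positions are those of GRCm38.p6 in the RefSeq tables. Genes or lists not named were not analysed here.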

Additional observations from a re-analysis of the deposited data

Results flagged for a closer look

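In 9 of 136 tests of a gene's level within a group of 4 arrays, 1 array lay far from the other 3. That is 6.62% of the tests, where chance alone marks about 5%. In 5 of the 9 the array was day 4 replicate 1, high for Icam2 (2.79), Erg (-2.71), Emcn (0.38), Egfl7 (4.26) and Gpihbp1 (0.34). The others were Sox18 in glomerular replicate 4 (3.51, low), Clec14a in uninjured podocyte replicate 1 (-2.84, low), Vwf in uninjured podocyte replicate 3 (-3.39, high) and Srgn in uninjured podocyte replicate 2 (1.22, high).

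The effect of LMB2 differed between day 7 and day 4, by limma's test of that difference, for 16 of the 34 genes, where 13.2% of all genes were called higher and 20.7% lower. Day 7 minus day 4 was 2.12 for Ecscr, 1.37 for Nos3, 1.33 for Cd93, 1.26 for S1pr1, 1.22 for Fli1, 1.17 for Esam and 1.13 for Gpihbp1. It was 0.95 for Calcrl, 0.90 for Tal1, 0.86 for Srgn, 0.82 for Egfl7, 0.80 for Flt1, 0.78 for Ramp2, 0.71 for Sox18 and 0.68 for Pecam1. Ehd3 went the other way, at -0.68. Both times lay on 1 slide, with day 7 on its first row and day 4 on its second, so row and time cannot be told apart.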

How the results depend on the processing

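In podocyte against glomerular RNA, all 34 genes kept their call and direction under every alternative run, and the block on replicate number, which pairs these samples, changed no call. The median difference was -4.08 with arrays centred on their median over all probes, -3.93 with normexp and the 75th percentile and -4.07 with normexp and quantile normalization. For day 4 against uninjured, 20 of the 34 were called with that median centring (48.1% of all genes). With only the 2 groups fitted 3 were called (27.6% of all genes). With the replicate block 0 were called (2310 genes in all, 15.9%), and with 1 array left out 2 to 14 (24.4% to 31.2% of all genes). At day 7 the median of the 34 was -0.082 with median centring, and 6 to 11 were called with 1 array left out (53.9% to 56.9% of all genes). Day 7 against day 4 had 9 to 25 called with 1 array left out (26.0% to 31.9% of all genes), and 3063 genes in all with the replicate block. Cd34 at day 7 reversed to 0.60 with the mean of its probes. The cause of these shifts was not tested. Same-numbered samples did not deviate together throughout the injury comparisons, with correlations of -0.41 to 0.49. The highest, 0.49, was that of day 7 against uninjured podocyte replicate 4, as high as those of podocyte against glomerular RNA. Slide as a block could not be fitted for LMB2 against uninjured, since each slide holds 1 side, and has no meaning within 1 slide. Centring on the median of the genes tested and the slide row block were added after seeing the data. That centring on the genes tested gave 12 of the 34 higher and 2 lower at day 7, where 25.5% of all genes were called higher and 30.5% lower. Signal near background limits Vwf, Calcrl and the dimmer probes of Erg, Cd34 and Clec14a.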
